A study of Mus musculus with 6 samples.

Results

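The 9 genes described here encode proteins of the tight junction and of the apical polarity machinery, Cldn3, Cldn4, Cldn7, Ocln, Marveld3, F11r, Tjp1, Tjp3 and Crb3. They were taken as a fixed list of symbols and matched to the 28418 gene identifiers of the deposited tables through the GENCODE M21 annotation, and all 9 were found. The cells were 4T1, a mouse mammary carcinoma line that serves as a transplantable model of triple-negative breast cancer. There were 3 libraries from cells grown for 35 passages in 100 nM PFOS (perfluorooctane sulfonate, a persistent fluorinated surfactant) and 3 from cells labelled 0 nM PFOS at the same passage number. The series asks what long culture at that dose does to gene expression in these cells. Nothing in the labels says that replicate libraries stem from different cultures, and p-values thus reflect the spread between libraries, part or all of which may be technical.

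Tight junctions are the apical belt of contact between epithelial cells. Claudins, tetraspan membrane proteins, form the strands that seal or selectively open the space between neighbouring cells. Occludin and MarvelD3, which share the MARVEL fold, and the immunoglobulin protein JAM-A (gene F11r) sit in the same membrane domain, while the scaffold proteins ZO-1 (Tjp1) and ZO-3 (Tjp3) tie claudin tails to actin. Crb3 encodes the epithelial Crumbs protein, which marks the apical membrane. Loss of claudins and occludin is a known feature of epithelial-mesenchymal transition, during which the Snail and ZEB repressors bind E-box sequences (CACCTG on either strand) in promoters of junction genes.

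Levels are in FPKM, a fragment number divided by transcript length and by the number of mapped fragments, which allows genes to be set side by side. Library sums ran from 306735 to 309381 FPKM at 100 nM and from 306716 to 308830 FPKM at 0 nM. Epithelial identity was plain in all 6 libraries, with Krt8, Krt18, Cdh1 and Epcam each at least 25.1 FPKM in every library. Replicate 3 at 100 nM stood apart from the other 5 libraries. Of 14 leukocyte markers, 12 had their highest value in it, and 4 of them (Cd3e, Cd3g, Gzma and Nkg7) were listed at 0 in all the other libraries. The summed level of the 14 markers was 135 to 299 FPKM at 100 nM and 136 to 176 FPKM at 0 nM. At 100 nM it was 299 FPKM in replicate 3 and 272.5 FPKM in replicate 2, so the sum alone does not set them apart. Most of the sum in replicate 2 was Lyz2, at 240.43 FPKM, against 185.11 FPKM in replicate 3. Lyz2 and Cd14 were the highest of the 14 markers. Lyz2 had 111 to 240 FPKM at 100 nM, with the highest value in replicate 2, and 103 to 147 FPKM at 0 nM. Cd14 had 65.2 FPKM in replicate 3 at 100 nM and 8.41 to 24.1 FPKM elsewhere. Of 11 fibroblast, endothelial and muscle markers, Pdgfra alone averaged at least 1 FPKM over the libraries, at 3.15 to 3.81 FPKM at 100 nM and 3.42 to 3.76 FPKM at 0 nM. Dcn, of the same list, reached 2.26 FPKM in that same library, with no more than 0.05 FPKM in any other. The part of these transcripts in the results below was not tested. In RNA from whole cultures, fewer expressing cells and less RNA per expressing cell cannot be told apart.

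The promoters of the members are shown first, because the E-box is the sequence through which junction genes are known to be repressed. Promoter windows of 250 bases before to 50 bases after an annotated start were found for 8 of the 9 genes, 12 windows in all (RefSeq, GRCm38.p6). Of these genes, 7 had at least 1 window with CACCTG on either strand, at 14 distinct sites. Over all promoter windows in the table the share holding the motif was 20.2% of 32851, and over genes with any window holding it 22.6% of 27025. Among windows within the GC range of the members (45.3% to 68.0%) the share was 22.9%. Counting the first window of each gene alone, 6 of the 8 members held a match, where 20.0% of genes did. Crb3 had 4 distinct sites, Cldn4, Cldn7, Ocln and Tjp3 had 2 each, Cldn3 and F11r had 1 each, and Tjp1 had 0. Neither AACCNGTT, a motif of the grainyhead-like factors (2.09% of all windows), nor TATAAA (13.6% of all windows) was found in any of the 12, on either strand. A match is a stretch of letters and not a measured binding site.

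**Figure D1:**
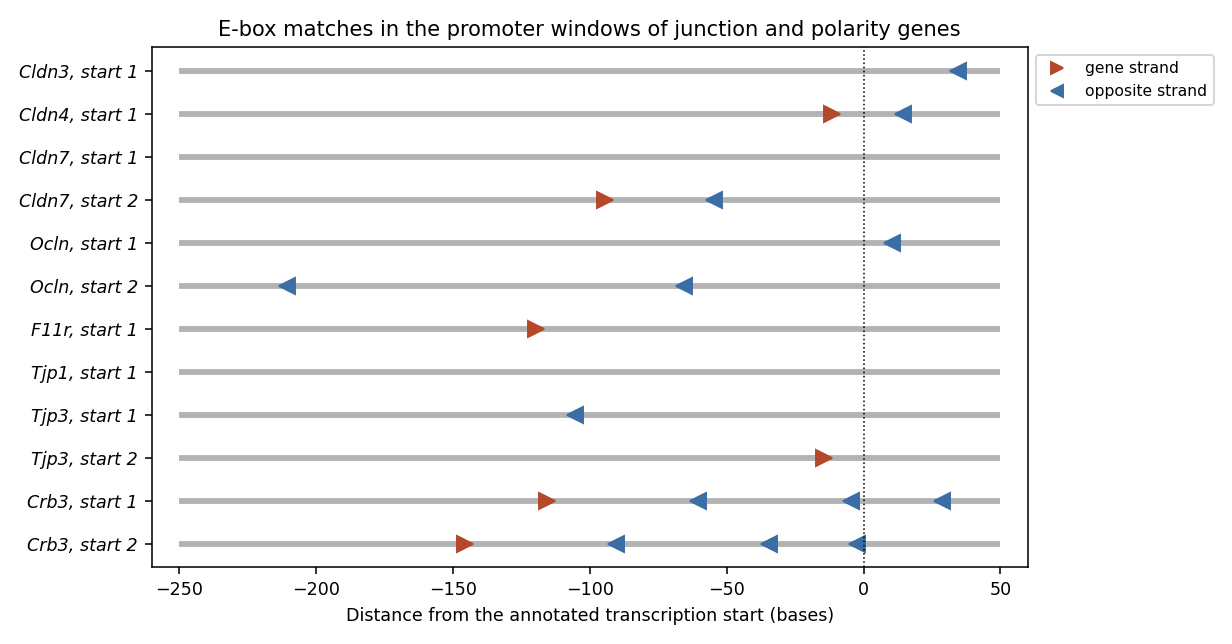
Positions of CACCTG matches (triangles, pointing right on the gene strand and left on the opposite strand) in the 12 promoter windows of 8 members, as distance in bases from the annotated start (dotted line). Both Crb3 windows hold 4 matches each, and the windows of Tjp1 and of the first Cldn7 start hold 0.

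The windows below run 5′ to 3′ along the gene strand, with CACCTG or its reverse complement CAGGTG in capitals. Tjp1, F11r and Ocln are shown as the members with the smallest p-values in the expression test, and Cldn3, Cldn4 and Crb3 were added after the matches were seen, as the highest claudin, its neighbour and the gene with most sites. Cldn3 lies at chr5:134985964-134986263 on the plus strand, Cldn4 at chr5:134946885-134947184 on the minus strand, Crb3 at chr17:57061951-57062250 on the plus strand, F11r at chr1:171437311-171437610 on the plus strand, Ocln at chr13:100552669-100552968 on the minus strand and Tjp1 at chr7:65371195-65371494 on the minus strand. The Tjp1 window belongs to a start inside the gene, whose outer end in the deposited tables is at 65527696.
Cldn3: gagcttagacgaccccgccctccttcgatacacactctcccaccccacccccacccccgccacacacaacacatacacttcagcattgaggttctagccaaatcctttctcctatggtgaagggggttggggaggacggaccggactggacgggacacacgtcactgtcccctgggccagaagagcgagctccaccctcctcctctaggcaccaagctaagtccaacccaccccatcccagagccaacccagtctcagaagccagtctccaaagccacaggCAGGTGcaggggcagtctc
Cldn4: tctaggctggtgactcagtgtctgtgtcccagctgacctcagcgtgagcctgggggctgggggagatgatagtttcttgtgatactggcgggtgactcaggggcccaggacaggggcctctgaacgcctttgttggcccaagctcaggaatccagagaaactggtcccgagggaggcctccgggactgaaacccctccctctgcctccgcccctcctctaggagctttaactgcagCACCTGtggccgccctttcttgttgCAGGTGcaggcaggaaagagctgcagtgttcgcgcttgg
Crb3: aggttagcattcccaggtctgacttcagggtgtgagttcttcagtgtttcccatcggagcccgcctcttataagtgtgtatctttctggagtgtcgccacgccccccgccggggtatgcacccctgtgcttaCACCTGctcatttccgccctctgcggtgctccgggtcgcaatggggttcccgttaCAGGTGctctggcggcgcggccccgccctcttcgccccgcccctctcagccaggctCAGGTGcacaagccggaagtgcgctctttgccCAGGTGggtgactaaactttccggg
F11r: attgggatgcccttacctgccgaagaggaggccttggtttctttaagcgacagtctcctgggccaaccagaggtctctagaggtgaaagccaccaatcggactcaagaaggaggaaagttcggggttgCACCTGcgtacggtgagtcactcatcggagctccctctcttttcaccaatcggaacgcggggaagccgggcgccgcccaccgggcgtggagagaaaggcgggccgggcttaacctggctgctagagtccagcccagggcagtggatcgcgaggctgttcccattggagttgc
Ocln: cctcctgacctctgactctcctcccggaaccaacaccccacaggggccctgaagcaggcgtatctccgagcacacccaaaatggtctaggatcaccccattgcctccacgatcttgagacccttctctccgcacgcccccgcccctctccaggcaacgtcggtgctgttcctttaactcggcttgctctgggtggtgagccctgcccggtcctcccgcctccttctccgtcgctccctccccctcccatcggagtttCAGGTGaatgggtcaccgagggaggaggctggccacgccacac
Tjp1: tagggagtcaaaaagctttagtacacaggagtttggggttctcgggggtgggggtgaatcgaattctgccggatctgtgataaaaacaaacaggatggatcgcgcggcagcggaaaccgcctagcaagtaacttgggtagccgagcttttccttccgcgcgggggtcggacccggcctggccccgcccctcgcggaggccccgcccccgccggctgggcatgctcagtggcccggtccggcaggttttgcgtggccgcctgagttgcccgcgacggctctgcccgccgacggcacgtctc
In these 6 windows the match nearest to the start was the one in Crb3, whose first base lies 7 bases before it. Cldn4 had matches beginning 14 bases before and at base 12 after its start, Cldn3 one at base 32 after, Ocln one at base 8 after and F11r one 122 bases before.

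No member passed the test for a difference between the doses. Of the 8 that averaged at least 1 FPKM over the 6 libraries and were tested, 0 were called higher and 0 lower at 100 nM PFOS by limma on log2(FPKM + 1) at a Benjamini-Hochberg adjusted p under 0.05, and 0 had an unadjusted p under 0.05. No other tool was run. Over all 11741 genes tested, 4.15% were called, 1.69% higher and 2.46% lower, and 20.7% had an unadjusted p under 0.05. The groups overlapped for all 9 members, whereas they did not overlap for 26.9% of tested genes. Members' adjusted p-values ran from 0.488 to 0.924. Of the 8 tested, 3 differences lay above 0 and 5 below, with a median of -0.04 on the log2(FPKM + 1) scale against 0.01 over all tested genes. The median size of the difference, whatever its sign, was 0.05 for members and 0.06 for all tested genes.

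**Figure D2:**
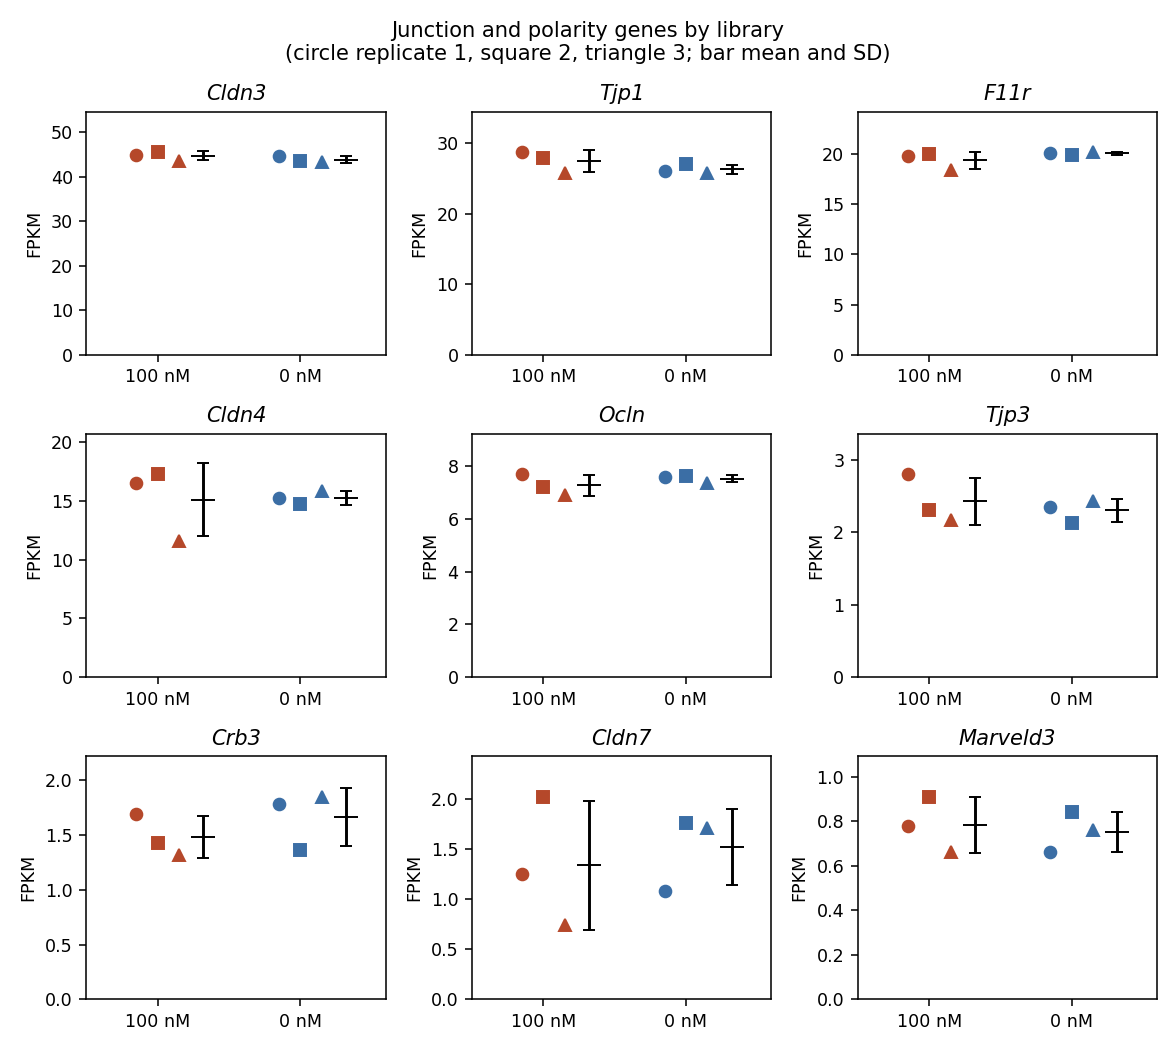
FPKM of each of the 9 genes (panels in order of mean level, axes from 0) in the 3 libraries at 100 nM PFOS (left) and the 3 at 0 nM PFOS (right), with mean and SD beside the points. The groups overlap in every panel, and the triangle at 100 nM, replicate 3, is the lowest point for Cldn4 at 11.57 FPKM and for Cldn7 at 0.74 FPKM.

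Levels spanned a wide range. Cldn3 was highest at a mean of 44.3 FPKM over the 6 libraries, above 91.0% of tested genes, followed by Tjp1 at 26.9, F11r at 19.7, Cldn4 at 15.2, Ocln at 7.403, Tjp3 at 2.37, Crb3 at 1.57, Cldn7 at 1.43 and Marveld3 at 0.768 FPKM. The ranges over libraries did not touch between neighbours in that order down to Tjp3 and Crb3. Those of Crb3 and Cldn7 overlapped, as did those of Cldn7 and Marveld3, so the place of Cldn7 among the lowest 3 genes is within their spread. Crb3, at 1.32 FPKM or more, lay above Marveld3, at 0.91 FPKM or less. The 5 highest, each above 5 FPKM on average, include a gene of every class except polarity.

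Among the claudins, Cldn3 (ENSMUSG00000070473, chromosome 5, 134986214 to 134987472, plus strand), a sealing claudin abundant in mammary epithelium, had 45.01, 45.55 and 43.61 FPKM at 100 nM, against 44.76, 43.54 and 43.33 FPKM at 0 nM. The 6 values lie between 43.33 and 45.55 FPKM and the groups overlap. Means were 44.7 ± 1.00 FPKM at 100 nM and 43.9 ± 0.772 FPKM at 0 nM (SD, n = 3 each), with a difference of 0.03 ± 0.03 (SE) on the log2(FPKM + 1) scale and a limma adjusted p of 0.610. Its 95% interval, -0.03 to 0.09, corresponds to a ratio of FPKM + 1 between 0.976 and 1.06, the narrowest among the members.

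Cldn4 (ENSMUSG00000047501, chromosome 5, 134945119 to 134946934, minus strand), a claudin that limits sodium passage, had 16.55, 17.27 and 11.57 FPKM at 100 nM, against 15.25, 14.71 and 15.88 FPKM at 0 nM. Replicates 1 and 2 at 100 nM lay above all 3 libraries at 0 nM and replicate 3 lay below them all. Means were 15.1 ± 3.10 and 15.3 ± 0.586 FPKM (SD, n = 3 each) at 100 nM and 0 nM, with a difference of -0.03 ± 0.14 (SE; limma adjusted p = 0.924). Without replicate 3 at 100 nM the difference was 0.14, with a 95% interval of 0.04 to 0.24 and a limma adjusted p of 0.160, so its sign turned and it was still not called. Cldn4 and Cldn3 are neighbours 39279 bases apart with 0 tested coding genes between them, and replicate 3 at 100 nM, far the lowest library for Cldn4, was the third lowest for Cldn3.

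Cldn7 (ENSMUSG00000018569, chromosome 11, 69964779 to 69967885, plus strand), whose product also lies along the lateral membrane, had 1.25, 2.02 and 0.74 FPKM at 100 nM, against 1.08, 1.76 and 1.71 FPKM at 0 nM. Its values vary by more within a group than between groups. The difference of -0.13 ± 0.21 (SE) on the log2(FPKM + 1) scale had the widest interval of the members, -0.64 to 0.38 (limma adjusted p = 0.779), and it was 0.06 without replicate 3 at 100 nM. As a ratio of FPKM + 1 the interval runs from 0.640 to 1.30.

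The summed level of Cldn3, Cldn4 and Cldn7 was 62.81, 64.84 and 55.92 FPKM at 100 nM, against 61.09, 60.01 and 60.92 FPKM at 0 nM. Replicate 3 at 100 nM was lowest and the other 2 libraries of that group highest. Cldn3 made up 71.7%, 70.3% and 78.0% of the sum at 100 nM, against 73.3%, 72.6% and 71.1% at 0 nM, and Cldn4 26.3%, 26.6% and 20.7% at 100 nM, against 25.0%, 24.5% and 26.1% at 0 nM. Cldn7 stayed between 1.32% and 3.12% of the sum. Mean sums were 61.2 ± 4.68 FPKM at 100 nM and 60.7 ± 0.581 FPKM at 0 nM (SD, n = 3 each).

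**Figure D3:**
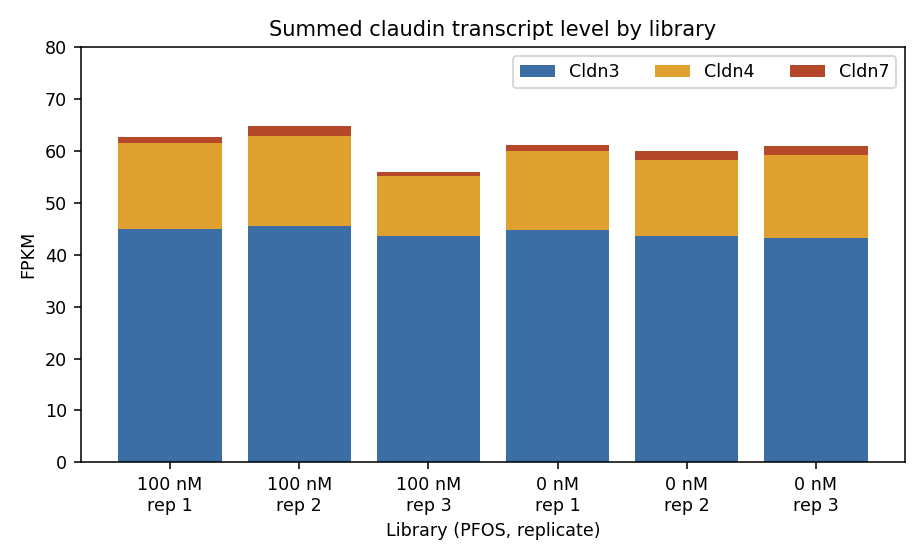
Summed FPKM of Cldn3, Cldn4 and Cldn7 in each library, stacked by gene, with 100 nM PFOS on the left and 0 nM PFOS on the right. Replicate 3 at 100 nM has the shortest bar at 55.92 FPKM, and its Cldn4 segment is the shortest of the 6.

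Among the other membrane proteins, Ocln (ENSMUSG00000021638, chromosome 13, 100496507 to 100552718, minus strand), which encodes occludin, had 7.69, 7.23 and 6.90 FPKM at 100 nM, against 7.60, 7.62 and 7.38 FPKM at 0 nM. The highest and the lowest value both belong to the 100 nM group. Its difference was -0.05 ± 0.04 (SE), 95% interval -0.15 to 0.06 (limma adjusted p = 0.599). F11r (ENSMUSG00000038235, chromosome 1, 171437535 to 171464603, plus strand), the JAM-A gene, had 19.80, 19.98 and 18.38 FPKM at 100 nM, against 20.12, 19.94 and 20.21 FPKM at 0 nM. The 0 nM libraries lay between 19.94 and 20.21 FPKM, and replicate 3 at 100 nM lay below all others. The difference was -0.05 ± 0.04 (SE), 95% interval -0.13 to 0.04 (limma adjusted p = 0.489), and -0.01 without that library. Marveld3 (ENSMUSG00000001672, chromosome 8, 109947914 to 109962203, minus strand) had 0.78, 0.91 and 0.66 FPKM at 100 nM, against 0.66, 0.84 and 0.76 FPKM at 0 nM, and its average fell short of the 1 FPKM needed to enter the test. In a fit with no filter on low values its difference was 0.02 ± 0.08 (SE; limma adjusted p = 0.917).

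Of the scaffold genes, Tjp1 (ENSMUSG00000030516, chromosome 7, 65296165 to 65527696, minus strand) had 28.77, 27.90 and 25.86 FPKM at 100 nM, against 26.08, 27.07 and 25.85 FPKM at 0 nM. Replicates 1 and 2 at 100 nM were highest and replicate 3 lay level with the lowest 0 nM library. Means were 27.5 ± 1.49 and 26.3 ± 0.648 FPKM (SD, n = 3 each) at 100 nM and 0 nM, with a difference of 0.06 ± 0.04 (SE; 95% interval -0.04 to 0.16, limma adjusted p = 0.488). Without replicate 3 at 100 nM the difference was 0.10, 95% interval 0.02 to 0.18, and the limma adjusted p 0.166. Tjp3 (ENSMUSG00000034917, chromosome 10, 81273207 to 81291581, minus strand) had 2.80, 2.31 and 2.17 FPKM at 100 nM, against 2.35, 2.13 and 2.43 FPKM at 0 nM. Replicate 1 at 100 nM was the highest library, the groups overlap, and the difference was 0.05 ± 0.08 (SE; 95% interval -0.14 to 0.24, limma adjusted p = 0.781), or -0.03 without that replicate.

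The polarity gene Crb3 (ENSMUSG00000044279, chromosome 17, 57059105 to 57065918, plus strand) had 1.69, 1.43 and 1.32 FPKM at 100 nM, against 1.78, 1.36 and 1.85 FPKM at 0 nM. The lowest value was at 100 nM and the 2 highest at 0 nM, with replicate 2 at 0 nM among the 100 nM values. The difference was -0.10 ± 0.10 (SE; 95% interval -0.33 to 0.13, limma adjusted p = 0.617). Crb3 overlaps Slc25a23 and Dennd1c on the other strand, Tjp3 overlaps Apba3, Cldn3 overlaps Wbscr25 and Tjp1 overlaps Gm44795. The libraries kept strand, but whether counting used it is not given in the sources used here, so reads of such pairs may be mixed. At most 0.874% of the 31-base words of any member occur in transcripts of another gene.

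**Figure D4:**
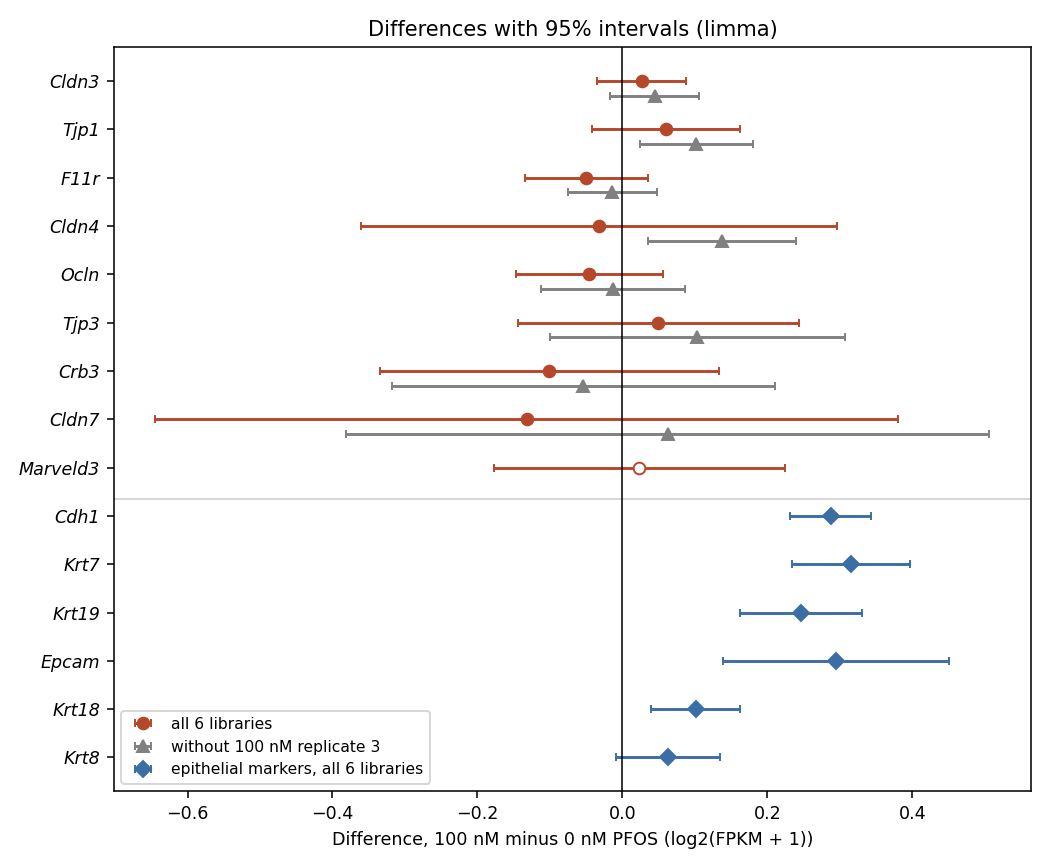
Differences (100 nM minus 0 nM PFOS, log2(FPKM + 1)) with 95% limma intervals for the members over all 6 libraries (circles, open for Marveld3, from the fit with no filter) and without replicate 3 at 100 nM (triangles), above those of 6 epithelial markers (diamonds). Every member's circle interval crosses 0, as does that of the marker Krt8 (-0.01 to 0.13). The Cdh1 interval runs from 0.23 to 0.34.

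Replicate 3 at 100 nM was the lowest of the 6 libraries for Cldn4, Cldn7, Ocln, F11r and Crb3, and it shared the lowest value of Marveld3 with replicate 1 at 0 nM. That is 5 of 9 members, where it was lowest for 20.9% of tested genes. It was the highest library for 0 members and for 19.1% of tested genes. With that library left out, 5 of 8 members had a difference above 0, 2 of them (Cldn4 and Tjp1) had an unadjusted p under 0.05, and 0 were called by limma. Over the 11719 genes of that fit, 52.4% had a difference above 0, 19.5% an unadjusted p under 0.05, and 290 (2.47%) were called, so the members' counts lie near those of all genes. The library holds the leukocyte transcripts given above, and their part in these low values was not tested.

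The same library was at or near 0 for Cldn1, Cldn2 and Igsf5, 3 junction genes expressed at a low level, but not for Cldn6, which had 0.70 FPKM there and 0.66 to 0.96 FPKM in the other libraries. Cldn1, a core barrier claudin of skin, had 1.03, 1.08 and 0.04 FPKM at 100 nM, against 1.19, 1.09 and 1.05 FPKM at 0 nM. Cldn2, which forms cation pores, had 0.43, 0.56 and 0.00 FPKM at 100 nM, against 0.35, 0.62 and 0.70 FPKM at 0 nM. Igsf5 (ENSMUSG00000000159), an immunoglobulin protein of the junction (also called JAM-4), had 0.72, 0.65 and 0.00 FPKM at 100 nM, against 0.60, 0.79 and 1.14 FPKM at 0 nM. In each case replicate 3 at 100 nM was at 0.04 FPKM or less and the other 5 libraries were at 0.35 FPKM or more. These 3 genes averaged under 1 FPKM, were not tested and were picked after their values were seen. Lower still, Cldn19, Cldn10, Ildr1, Ildr2 and Jam3 were also at 0.00 FPKM in that library alone, with at most 0.25 FPKM elsewhere. Cldn23, Clmp and Esam were not lost there, at 0.35, 0.12 and 0.12 FPKM. The share of all genes at 0 in that library alone is not given here, so the losses are not shown to be particular to junction genes. Of 22 claudin genes in the tables, 5 averaged at least 1 FPKM and 1 was listed at 0 throughout. Among the 9 claudins that averaged at least 0.25 FPKM, a level chosen after the values were seen, 7 had their lowest value in replicate 3 at 100 nM, the exceptions being Cldn3 and Cldn6. The 7 include Cldn1, Cldn2, Cldn4 and Cldn7, already described above, so they add little to those values. The share over all genes at or above 0.25 FPKM is not given here.

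The further lists stand beside all tested genes, of which 1.69% were called higher, 2.46% lower and 20.7% had an unadjusted limma p under 0.05. Of the other tight junction membrane proteins, 27 of 31 listed genes were in the tables and 7 were tested, with 0 called higher or lower by limma, 1 at an unadjusted p under 0.05 and a median difference of 0.01. That one was Cldn12, a claudin that lacks the usual scaffold-binding tail, at 24.9 ± 1.53 FPKM at 100 nM and 27.8 ± 0.391 FPKM at 0 nM (SD, n = 3 each). Its groups do not overlap, and its difference was -0.15 ± 0.04 (SE; limma adjusted p = 0.121). Lsr, the angulin that gathers proteins at tricellular contacts, averaged 49.1 ± 1.92 FPKM at 100 nM and 46.6 ± 1.25 FPKM at 0 nM (SD, n = 3 each; limma adjusted p = 0.300). Marveld2, the tricellulin gene and a relative of Marveld3, averaged 5.43 FPKM at 100 nM and 5.36 FPKM at 0 nM, and Cldn9 2.88 FPKM at 100 nM and 3.04 FPKM at 0 nM. Both of these had overlapping groups and were named after their values were seen.

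Of 26 other plaque genes, all in the tables, 22 were tested. Among them 3 rose and 0 fell in the limma test, 4 had an unadjusted p under 0.05, and the median difference was 0.04. Ybx3, whose product ZONAB is a Y-box factor that binds ZO-1, had 205.5, 215.0 and 208.1 FPKM at 100 nM, against 186.7, 187.8 and 187.6 FPKM at 0 nM, a difference of 0.16 ± 0.02 (SE; limma adjusted p = 0.0150). Micall2, a Rab13 effector in junction assembly, averaged 22.2 ± 0.717 FPKM at 100 nM and 19.4 ± 0.382 FPKM at 0 nM (SD, n = 3 each; limma adjusted p = 0.0328). Amotl1, an angiomotin-family protein that binds junction scaffolds and YAP, averaged 22.4 ± 0.393 FPKM at 100 nM and 20.2 ± 0.205 FPKM at 0 nM (SD, n = 3 each; limma adjusted p = 0.0315). The groups of these 3 genes do not overlap, and each ratio of means lay between 1.11 and 1.14. In 17 alternatives the call was lost in 6 for Ybx3, 8 for Amotl1 and 9 for Micall2, and 0 of the list passed without any single 0 nM library. The cortactin gene Cttn averaged 74.7 ± 0.636 FPKM at 100 nM and 73.2 ± 2.43 FPKM at 0 nM (SD, n = 3 each; limma adjusted p = 0.585).

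Of 36 other polarity symbols, 35 were in the tables and 27 were tested, with 1 higher and 0 lower in the limma test, 5 at an unadjusted p under 0.05 and a median difference of -0.01. The gene that rose was Rab11a, a small GTPase of recycling endosomes that carry apical cargo, at 26.64, 25.69 and 25.93 FPKM at 100 nM, against 23.48, 22.23 and 23.39 FPKM at 0 nM (difference 0.17 ± 0.03, SE; limma adjusted p = 0.0346). Of 17 alternatives, 10 lost that call, and leaving out any single library was enough to lose it. Rab11a also lies on chromosome 9 where 41 of 43 tested coding genes within 2.5 Mb were higher, with a median difference of 0.17, the same size as its own. Of these 43 genes, 16 were called higher, against 1.69% of all tested genes. The most abundant genes of the list were Cdc42, the GTPase at the head of the Par complex, at 112.4 ± 0.610 FPKM at 100 nM and 112.7 ± 1.12 FPKM at 0 nM, and Ezr, the ezrin gene, at 99.0 ± 3.25 FPKM at 100 nM and 103.6 ± 2.76 FPKM at 0 nM (SD, n = 3 each; limma adjusted p = 0.923 and 0.312).

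Of 25 transcription and splicing factors known to act on junction genes, 24 were in the tables and 14 were tested, with 0 called by limma, 5 at an unadjusted p under 0.05 and a median difference of 0.01. Twist1, a repressor of epithelial genes, was the most abundant at 19.0 ± 0.911 FPKM at 100 nM and 20.8 ± 1.71 FPKM at 0 nM, followed by Sp1, a general GC-box activator, at 12.6 ± 0.186 FPKM at 100 nM and 13.0 ± 0.440 FPKM at 0 nM (SD, n = 3 each; limma adjusted p = 0.347 and 0.540). Named after their values were seen are the E-box repressors Snai1 and Zeb2 and the activator Grhl2. Over the 14 tested factors, 8 differences lay above 0 and 6 below. Zeb2 and Grhl2 are among the 5 with an unadjusted limma p under 0.05, and the others of these are not named here. Snai1 had 7.72, 7.29 and 6.73 FPKM at 100 nM, against 7.10, 7.52 and 7.04 FPKM at 0 nM, with overlapping groups (difference 0.00 ± 0.05, SE; limma adjusted p = 0.981). Zeb2 had 2.29, 2.17 and 2.27 FPKM at 100 nM, against 2.46, 2.55 and 2.52 FPKM at 0 nM, with no overlap (limma adjusted p = 0.222). Grhl2, a grainyhead-like factor that keeps claudin genes active in mouse epithelia, had 3.91, 4.05 and 3.74 FPKM at 100 nM, against 3.17, 3.35 and 3.15 FPKM at 0 nM, also with no overlap and a difference of 0.21 ± 0.04 (SE; limma adjusted p = 0.0515). Grhl2 passed in 2 of 16 alternatives, at an adjusted p of 0.0491 in limma without a variance trend and 0.0483 in robust limma. In the other 14 it was not called, with limma adjusted p-values up to 0.17.

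**Figure D5:**
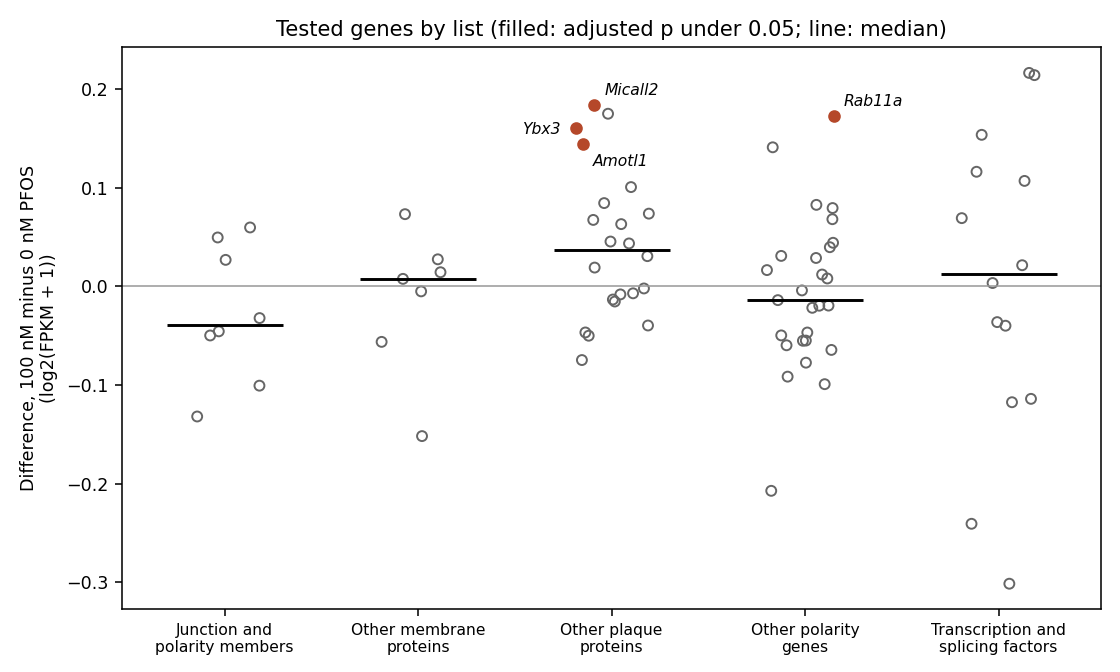
Differences (100 nM minus 0 nM PFOS, log2(FPKM + 1)) of tested genes in the 5 lists, each point 1 gene, filled and named where limma called it, with the list median as a line. The members have 0 filled points, the plaque list 3 and the polarity list 1.

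The members can be set beside the epithelial markers, which lie on the basolateral side of the same contacts or in the cytoskeleton. Of 6 markers, 3 rose and 0 fell, and 5 had an unadjusted p under 0.05. Among all tested genes 1.69% were called higher and 20.7% had an unadjusted limma p under 0.05. Cdh1, the E-cadherin gene of the adherens junction, had 67.35, 66.94 and 64.42 FPKM at 100 nM, against 54.06, 54.36 and 53.82 FPKM at 0 nM, a difference of 0.29 ± 0.02 (SE) with a 95% interval of 0.23 to 0.34 (limma adjusted p = 0.00323). Krt7 and Krt19 rose by 0.32 and 0.25 (limma adjusted p = 0.00731 and 0.0187), and Krt8, Krt18 and Epcam did not pass (limma adjusted p = 0.295, 0.0861 and 0.0606). The 95% intervals of 5 of the 8 tested members end below the lower bound for Cdh1, and those of 3 (Cldn4, Cldn7 and Tjp3) reach it. Other markers lie closer to the members. The Krt8 interval, -0.01 to 0.13, crosses 0. Those of Krt18 and Epcam start at 0.04 and 0.14, below the upper bound of 0.16 for Tjp1. The Cdh1 call was kept in all 17 alternatives, that of Krt7 was lost in 1 and that of Krt19 in 7. Of the 31-base words of Krt8 and Krt18, 32.3% and 11.4% also occur in other genes, so their levels are uncertain. The same holds for the leukocyte marker Lyz2, at 32.8%. The difference between Cdh1 and the members was not tested itself.

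Genes around the members were also read, since neighbouring genes move together in places in these data. Among all tested genes the median difference was 0.01, and 1.69% were called higher. The share of all tested genes with a difference above 0 in the same fit is not given here. Whether the counts around the members exceed that share was not tested. Within 2.5 Mb of Cldn3 and Cldn4, 36 of 50 other tested coding genes had a difference above 0, with a median of 0.05, and 3 were called higher. Around Tjp3 it was 78 of 98, with a median of 0.05 and 1 called higher, and around Marveld3 11 of 41, with a median of -0.02 and 0 called. Around Cldn7, Ocln, Tjp1, F11r and Crb3 the medians lay between -0.01 and 0.02, with 5 of 82 called higher around Cldn7, 1 of 17 around Tjp1 and 0 around the other 3. The median around Rab11a was 0.17, and those around Ybx3, Amotl1 and Micall2 were -0.02, 0.04 and 0.04. Called higher were 16 of 43 genes around Rab11a, 0 of 6 around Ybx3, 2 of 18 around Amotl1 and 2 of 55 around Micall2.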

How the data were processed

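The deposited values are FPKM per gene, 1 table per library, written to 2 decimals. Per the labels' protocols, poly(A) RNA was made into dUTP-marked libraries and read in pairs. The tools listed in the submitters' processing notes are fastp, HISAT2 and StringTie, beside 2 builds, mm10 and GRCh38. For versions and counting options, the answer is not given in the sources used here. Coordinates are those of the deposited tables and belong to GRCm38, where GENCODE M21 gives the same positions for the members except the outer end of Tjp1 (65527781).

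The tables hold no read counts, so depth is unknown. At the best scaling, 27.0% to 29.7% of low values lay within 0.1 of a whole multiple of 1 read, so reads were not recovered. Genes averaging at least 1 FPKM over the 6 libraries were tested with limma 3.58.1 (R 4.3.3, trend, two-sided, pseudocount of 1 FPKM, 100 nM minus 0 nM), with Benjamini-Hochberg adjustment over all 11741. The log2(FPKM + 1) scale understates changes of low genes. The test was checked on simulated data. With 3 against 3, an exact permutation test cannot go below 0.1 and was not used.

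The members, the 4 further gene lists and the tests were chosen with earlier results of these data known. The rule for named genes takes all members and, in each further list, up to 5 called genes with the smallest p and the 2 with the highest mean, all 6 epithelial markers and the 2 highest of each other marker list. Alternatives covered pseudocounts, filters, scalings, moderation, a block for replicate number and the omission of libraries. Protein features were planned and are not reported here. Genes listed but not in the tables were not analysed here. Sums, motif counts and figures came from Python 3.11.15 with numpy 2.4.6, matplotlib 3.10.9 and pandas 2.3.3.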

Additional observations from a re-analysis of the deposited data

How the results depend on the processing

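In all 17 alternatives 0 members were called higher and 0 lower, and 0 other membrane proteins were called. The number of genes called over the whole table, 487, was 204 with no filter on low values, 294 without a variance trend, 91 without both replicates numbered 3, and 122 to 290 when 1 library was left out. With the replicate number as a block it was 58, with 0 plaque and 0 polarity genes called. Same-numbered libraries did not deviate together (correlations of -0.03, -0.05 and 0.01 over 11741 genes). Such correlations cannot tell whether same-numbered libraries were handled together, which the labels do not state. The 3 plaque calls became 0 without a trend and without both replicates numbered 3, and 0 to 3 with 1 library left out. The polarity call became 0 with no filter, without a trend, without both replicates numbered 3 and with each single library left out, and 2 at a mean of 5 FPKM. Of the transcription and splicing factors, 1 was called without a trend and 1 with robust limma. The ratio of the claudin sums, 1.009, stayed between 0.978 and 1.05.

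With 1 library left out, differences changed sign for Cldn4 (-0.13 to 0.14), Cldn7 (-0.34 to 0.062), Tjp3 (-0.027 to 0.10), Marveld2 (-0.10 to 0.079), Cldn9 (-0.12 to 0.018), Cdc42 (-0.0086 to 0.0040), Snai1 (-0.038 to 0.049) and Cd14 (-0.72 to 0.69). Without both replicates numbered 3 they were 0.16 for Cldn4, 0.12 for Cldn7, 0.068 for Cldn9 and -0.73 for Cd14, and Snai1 was -0.0023 under quantile normalization. The cause was not tested. Fewer libraries leave fewer degrees of freedom. Intervals were wide for the members under about 2.5 FPKM (Tjp3, Crb3, Cldn7 and Marveld3), and also for Cldn4, at a mean of 15.2 FPKM. Read depth behind them is unknown.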
